A study of Mus musculus with 18 samples.

Results

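The replication-dependent histone genes were examined in RNA sequencing of female mice with and without Xist, the long noncoding RNA that coats and silences an X chromosome in each female cell. Members were the protein-coding genes of the GRCm38 annotation (GENCODE mouse release 21) whose symbols start with Hist1h, Hist2h, Hist3h or Hist4h. Of 46078 gene identifiers in each of the 4 deposited tables, 65 met this rule, and 2 further annotated genes, Hist1h2bh and Hist1h2bm, were not analysed here. The members comprised 6 genes for linker histone H1, 18 for H2A, 16 for H2B, 12 for H3 and 13 for H4. They lie on chromosomes 13 (52 genes), 3 (10 genes), 11 (2 genes) and 6 (1 gene), and none is X-linked. All mice were female: by the labels, mutants were homozygous for an Xist deletion and controls heterozygous. The deposited columns of the controls are headed WT, which differs from the labels, and the labels were followed. By the labels, no group here is free of a deleted Xist allele. The labels state neither the deleted segment, the strain, nor the age at which fibroblasts were taken. Primary tail-tip fibroblasts gave 3 control and 3 mutant libraries, and spleen, liver and brain of postnatal day 1 gave 2 control and 2 mutant libraries each, described by the submitters as biological replicates. The series' design text names heart where the sample labels name brain, and the labels were followed.

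Replication-dependent histones package newly made DNA, and their genes are read mainly in S phase of the cell cycle. Their mRNAs are unusual in having no poly(A) tail: transcripts end just after a short stem-loop that is bound by the stem-loop binding protein Slbp, and trimming at that end uses the U7 small nuclear RNA. The genes have no introns in most cases and occur in clusters in which neighbouring copies code for nearly the same protein. Libraries made from total RNA after removal of ribosomal RNA, as here, read these untailed transcripts, which libraries selected for poly(A) largely miss. Some members, among them Hist1h1c, Hist1h2bc and Hist2h2be, are also known to give polyadenylated mRNAs in cells that have stopped dividing.

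The stem-loop was searched in the GENCODE transcripts as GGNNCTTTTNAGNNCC, on the transcript strand. It was found in an annotated transcript of 42 of the 65 members (64.6%) and of 30 of 21836 other protein-coding genes (0.137%). The following members, chosen because the results below turn on them, show its forms, with the stem-loop in capitals and 5 flanking bases in lower case.
Hist1h1c: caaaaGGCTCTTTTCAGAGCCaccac
Hist1h2ab: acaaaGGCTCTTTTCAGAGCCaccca
Hist1h2bk: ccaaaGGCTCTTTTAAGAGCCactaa
Hist1h3b: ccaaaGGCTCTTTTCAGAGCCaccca
Hist1h4f: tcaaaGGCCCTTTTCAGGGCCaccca
Hist1h4b: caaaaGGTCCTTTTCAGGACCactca
Hist2h4: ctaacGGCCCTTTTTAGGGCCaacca

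The form of Hist1h1c, Hist1h2ab and Hist1h3b was the commonest, present in 24 members, while the form of Hist1h4f was present in 7 and that of Hist1h2bk in 6. The stem of Hist1h4b was found in 2 members, as was that of Hist2h4. Some members without a match have short annotated transcripts, such as Hist1h2bl with 381 bases and Hist1h4k with 312 bases, and no match says only that these letters are not in the annotated transcript. Hist1h2bc and Hist2h2be had no match in annotated transcripts of 1156 and 2620 bases.

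Promoters, taken as the 250 bases before the RefSeq start (GRCm38.p6), were matched for 59 members by symbol or synonym. They are shown for an H2B and an H1 gene because these families hold the octamer and the H1 box, known elements of H2B and H1 promoters. Capitals mark every match, on either strand, to any of 4 motifs. The core of the TATA box was searched as TATAAA. The element that the factor NF-Y is known to bind was searched as CCAAT. The octamer, which Oct-1 is known to bind in H2B promoters, was searched as ATTTGCAT. The H1 box, found upstream in H1 genes, was searched as AAACACA. Matches did not overlap in these sequences, and the RefSeq start of Hist1h2bk lies 49 bases from its GENCODE start.
Hist1h2bk (chr13:22035571-22035820, plus strand): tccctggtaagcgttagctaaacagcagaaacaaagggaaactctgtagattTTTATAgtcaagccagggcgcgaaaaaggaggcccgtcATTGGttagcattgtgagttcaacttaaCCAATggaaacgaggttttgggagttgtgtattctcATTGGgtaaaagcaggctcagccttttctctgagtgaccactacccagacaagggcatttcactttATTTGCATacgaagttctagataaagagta
Hist1h1e (chr13:23622559-23622808, minus strand): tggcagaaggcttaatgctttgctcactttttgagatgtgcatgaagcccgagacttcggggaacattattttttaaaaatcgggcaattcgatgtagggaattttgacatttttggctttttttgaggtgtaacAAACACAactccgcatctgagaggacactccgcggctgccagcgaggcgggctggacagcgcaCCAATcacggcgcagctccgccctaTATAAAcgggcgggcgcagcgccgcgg

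A match to CCAAT was found in 48 of the 59 member promoters (81.4%) and in 34.5% of 27025 gene promoters of the same length. All 18 H2A and all 14 H2B promoters held it, against 3 of 12 H4 promoters. The octamer was present in 7 H2A and 5 H2B promoters, in no promoter of the other families, and in 1.61% of all promoters. The H1 box was present in 4 of 5 H1, 2 of 18 H2A and 1 of 14 H2B promoters, in no H3 or H4 promoter, and in 6.22% of all promoters. TATAAA was present in 28 member promoters (47.5%) against 13.0%. Neighbouring members can share a promoter region: 10 pairs of members started within 600 bases of each other in opposite directions, and all 10 joined an H2A gene to an H2B gene, as with Hist1h2ah and Hist1h2bk, whose starts lie 178 bases apart.

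Near-identical copies limit what a read of 50 nt can assign. Of all 50-base windows of a member's transcripts, between 0% and 100% (median 45.0%) were found in no other annotated gene. Hist1h1a, Hist1h1b, Hist1h1t and Hist2h2be were unique throughout, whereas Hist1h2bq was unique in 2.68% of windows. No window was unique for 5 members, of which Hist2h3b, Hist2h2bb and Hist2h2aa2 carried reads. The other members of this kind, Hist2h2aa1 and Hist2h3c1, were at 0 in every library, where 3 reads, the upper limit that a count of 0 allows, equal a signal of 0.103 to 0.225 (counting error only). The labels do not say how reads matching several genes were counted or whether strand was used, so values of single copies are uncertain, and sums over a family less so.

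Values below are the deposited signal, which is reads per gene after scaling by the authors. Reads in genes numbered between 12356231 and 29154395 per library. Spleen mutant 1 had the fewest reads but 32381 genes with a read, against 25166 to 26940 in the other spleen libraries. In liver, genes with a read numbered 28889 and 23623 in controls and 27207 and 24307 in mutants. The part of these differences in the histone values was not tested. Xist (ENSMUSG00000086503, chromosome X, 103460366 to 103483254, minus strand) was lower in every mutant than in every control of its tissue. In fibroblasts it was 141, 98.2 and 70.5 in controls and 11.04, 13.5 and 2.33 in mutants. Spleen had 1205 and 1121 against 117 and 51.2, liver 594 and 730.4 against 178 and 257, and brain 666 and 683 against 3.62 and 4.15. Xist signal was thus lowered but not absent in mutants. Liver mutants kept the most, with a mean of 217 against 662 in liver controls. The labelled tissues held their markers: 3 collagen genes and Pdgfra summed to 18875 to 34253 in fibroblasts, hepatocyte markers to 70661 to 111037 in liver, and neuronal markers to 5018 to 6016 in brain libraries. In spleen, erythroid markers summed to 3969 to 9683 and lymphocyte markers to 264 to 639. No marker of the tissue named was at 0 in these groups.

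Among control tissues, histone RNA was most abundant in spleen and liver and least abundant in brain and fibroblasts. The 65 members summed to 36104 and 14571 in the spleen controls, to 20268 and 5424 in the liver controls, to 3011, 2462 and 1383 in the fibroblast controls, and to 1617 and 1488 in the brain controls. These sums were 1.54% to 3.23% of all signal in spleen, 0.551% to 2.02% in liver, 0.136% to 0.312% in fibroblasts and 0.151% to 0.158% in brain. The tables were normalized separately, so the levels are set side by side with no test. Spleen and liver controls overlapped, and so did fibroblast and brain controls, but every spleen and liver control sum exceeded every fibroblast and brain control sum. For single members, 52 of 65 were higher in both spleen controls than in any fibroblast or brain control, and 46 of 65 in both liver controls. In bulk tissue, a larger share of dividing cells and more histone RNA per cell cannot be told apart.

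**Figure D1:**
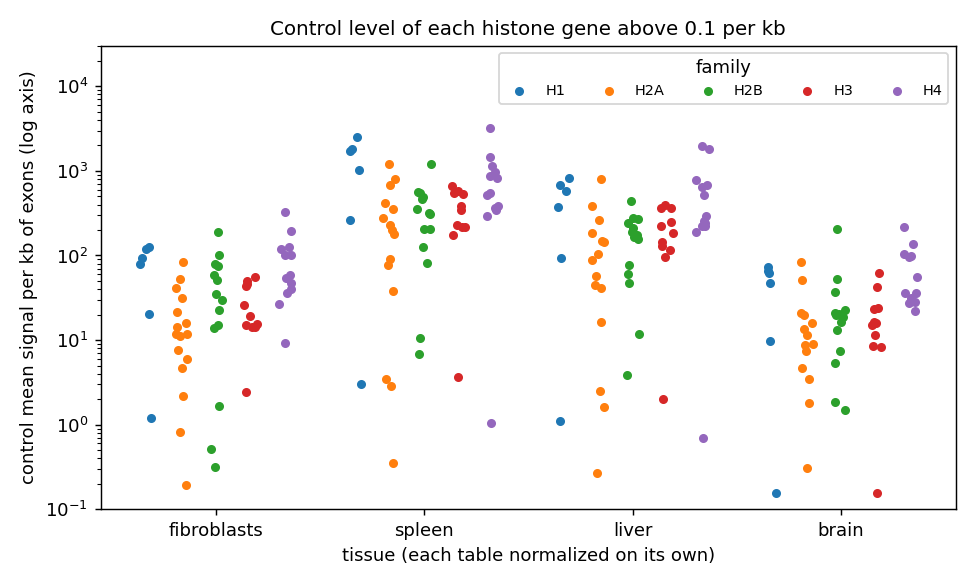
Control mean signal per kb of exons (log axis) of each histone gene above 0.1 per kb, by tissue and coloured by family. Most genes lie about a decade higher in spleen and liver than in fibroblasts and brain, with a median over all 65 members of 315 per kb in spleen, 174 in liver, 26.3 in fibroblasts and 16.6 in brain.

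H4 and H1 genes made up most of the histone sum in every library. H4, the core histone that pairs with H3, took 29.5% to 41.5% of it, and H1, which binds the linker DNA between nucleosomes, took 22.3% to 40.7%. H2B held 10.2% to 22.1%, H3 8.52% to 13.0% and H2A 6.66% to 9.81%. Per kb of exons, 2 H4 genes named after their values were seen led the order: Hist1h4h was first in fibroblasts (330 ± 137 per kb, SD, n = 3) and brain (215 ± 5.81, n = 2), and Hist1h4f was first in spleen (3179 ± 1704, n = 2) and liver (1981 ± 1724, n = 2). The next gene in order lay within 1 SD of the first in spleen (Hist1h1a, 2520 per kb), liver (Hist1h4h, 1811) and fibroblasts (Hist1h4f, 197 ± 77.3). This SD includes library differences that members shared. Within each control Hist1h4f led the next gene, with 4384 and 1975 against 4061 and 980 in spleen. In liver it had 3200 and 762 against 2873 and 749. In fibroblasts Hist1h4h ranged from 173 to 429 and Hist1h4f from 108 to 247. In brain the next, Hist3h2ba (208 ± 36.8, n = 2), lay below both control values of Hist1h4h, 211 and 219, but its own values of 182 and 234 enclosed them. Exon lengths include annotated extensions past the stem-loop, as in Hist1h1d with 7425 bases, and these lower a value per kb.

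In control libraries the leading members of each family by signal were as follows. For the linker histones, Hist1h1c had 3817 and 1501 in spleen, 1588 and 548 in liver, 247, 209 and 136 in fibroblasts, and 129.7 and 99.3 in brain. Hist1h1d had 2969.9 and 969.8 in spleen and 79.5 and 64.7 in brain, and Hist1h1e had 2821 and 1118 in spleen and 143 and 112 in brain. Both were thus lower in each brain control than in each spleen control. The leading H2A genes, Hist1h2ak, Hist1h2ai and Hist1h2ab, reached 510.1, 461 and 441 in spleen control 1. The leading H2B genes were Hist1h2bb, with 800.5 and 411 in the spleen controls, Hist1h2be with 542 and 184, and Hist1h2bc with 594 and 231. Per kb, Hist1h2be had a spleen control mean of 81.6, against 1193 for Hist1h2bb. Of its windows, 10.1% lay in the overlapping model of Hist1h1e. Among H3 genes, Hist1h3f had 1021 and 437 in the spleen controls, Hist1h3e 817 and 281, and Hist2h3b 320.5 and 219. Among H4 genes, Hist2h4 had 1903 and 794, Hist1h4d 1699.9 and 926, and Hist1h4f 1714 and 772. In each of these genes the first spleen control was the higher.

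Testis-type members were low in every tissue. Hist1h1t, the testis linker histone, had 3.72 and 1.73 in the spleen controls and at most 1.53 in control or mutant libraries of the other tissues. Hist1h2ba, a testis H2B, reached 7.06 in liver control 1 and at most 0.925 in fibroblasts and 0.772 in brain. Hist1h2aa was at 0 in 16 of 18 libraries and had 1 read in the first control of spleen and of liver.

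In fibroblasts, spleen and liver, the histone sums of the controls lay farther apart than the means of the genotypes did. In fibroblasts the sum was 3011, 2462 and 1383 in controls and 1419.6, 4696 and 2046 in mutants, so that the highest and lowest libraries, 3.40-fold apart, enclosed both groups. In spleen, control 1 stood apart at 36104, with control 2 at 14571 inside the range of the mutants at 11234 and 16407. In liver, control 1 had 20268 and mutant 1 had 11186, while control 2 and mutant 2 had 5424 and 6033. In brain, the sums were close, with 1617 and 1488 in controls and 1488 and 1232 in mutants. The groups overlapped in fibroblasts, spleen and liver. In brain the lower control, at 1488.2, and the higher mutant, at 1488.3, met.

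**Figure D2:**
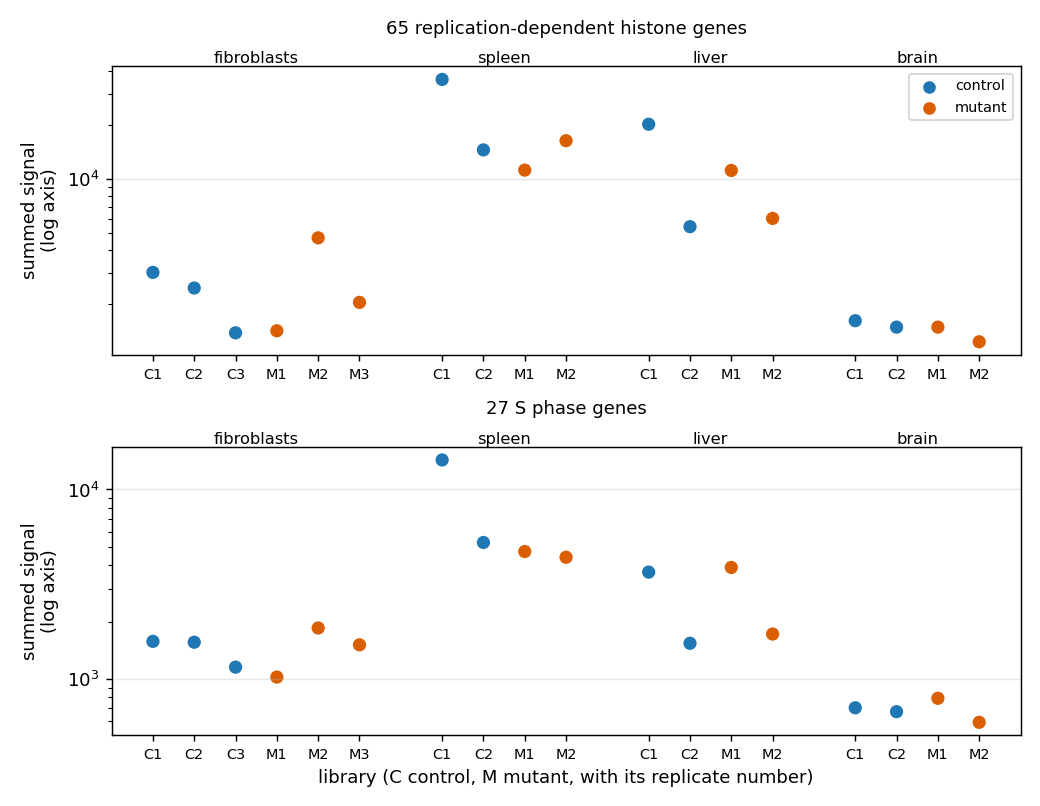
Summed signal per library (log axis) of the 65 histone genes above and of 27 S phase genes below, with controls in blue and mutants in orange. Spleen control 1 is highest in both panels (36104 and 14315), and liver libraries numbered 1 lie above those numbered 2 in both.

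Members varied together from library to library. Of 56 members with a mean signal of at least 1 in fibroblasts, 50 had their highest value in mutant 2, against 26.9% of all genes at that level. In spleen, 55 of 57 were highest in control 1, against 40% of all genes, and 49 were lowest in mutant 1, against 35.1%. In liver, 52 of 55 were highest in control 1, against 15.4%, and 34 were lowest in control 2, against 22.3%. Both liver libraries numbered 1 exceeded both numbered 2 in 47 of 55 members, against 17.9% of all genes. In brain, 42 of 53 members were lowest in mutant 2, against 19.5%. These counts describe libraries that share all of their genes' reads and were not tested.

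**Figure D3:**
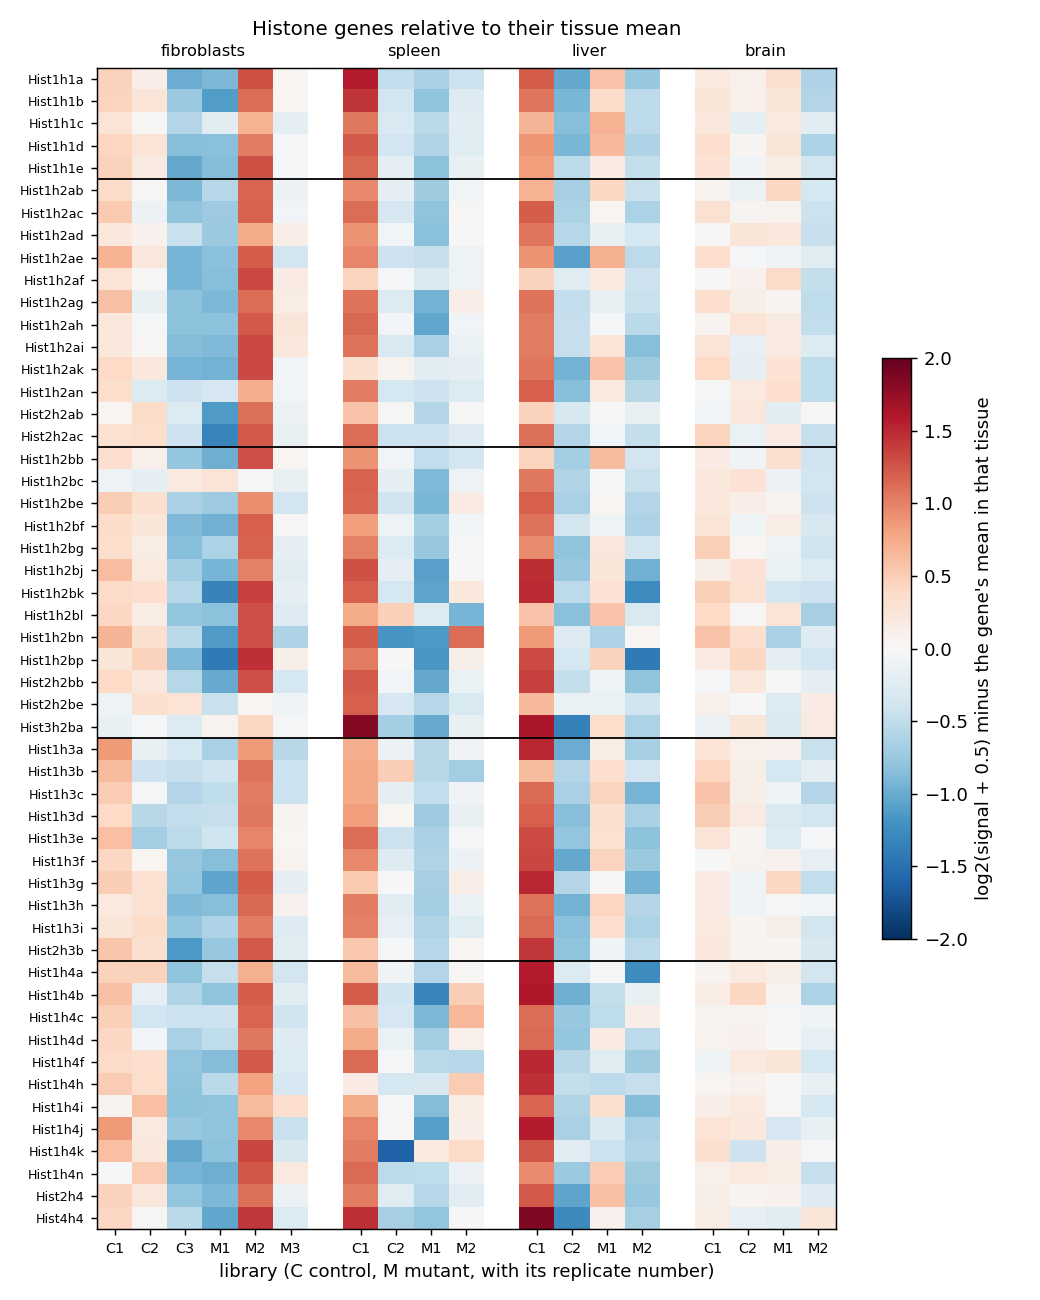
Heat map of log2(signal + 0.5) minus the gene's mean within each tissue, for the 52 members with a mean of at least 5 over the 18 libraries, ordered by family and drawn between -2 and 2. The columns of fibroblast mutant 2, spleen control 1 and liver control 1 are red in nearly every row, while rows of Hist1h2bc and Hist2h2be are pale in fibroblasts.

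Genes of S phase moved with them in part. The 27 genes listed as such, among them the Mcm helicase genes, Pcna, Rrm2 and Mki67, summed to 1581, 1565 and 1156 in fibroblast controls. In fibroblast mutants they summed to 1025, 1860.3 and 1516. In spleen the sums were 14315 and 5255 in controls and 4707.5 and 4391 in mutants, and in liver 3666 and 1545 against 3881 and 1729. Mki67 weighed heavily in the organ sums. Its control mean was 3708 ± 2582 (SD, n = 2) in spleen, beside a mean sum of 9785. In liver it was 927 ± 594 (SD, n = 2), beside 2605. The libraries highest in histone RNA were also highest in the sum of the 27 genes in fibroblasts and spleen. In liver, mutant 1 was the highest in S phase genes, although its histone sum of 11186 was below the 20268 of control 1. Erythroid markers, from a cell type that divides in the newborn spleen and liver, summed to 9683 and 5603 in spleen controls and 3969 and 6728 in mutants, and to 4550.4 and 2062 in liver controls and 6686 and 3294 in mutants. None of the 4 erythroid markers was at 0 in these groups, and their part in the histone differences was not tested. Other marker lists differed in spleen. Neutrophil markers summed to 2853 and 8832 in controls and 2954 and 6238 in mutants, and lymphocyte markers to 264 and 639 against 309 and 430. Both were thus lower in control 1 than in control 2. Hepatocyte markers summed to 279.7 and 8.05 in spleen controls and 346.7 and 24.0 in mutants. The part of these lists was not tested either. Untailed RNAs that are not histone mRNAs, led by Rn7sk, Rmrp and Rpph1, summed to 73217 in liver control 1 and to 33761 to 38134 in the other liver libraries. In spleen they summed to 53867 and 45725 in controls and 50544 and 67535 in mutants, so spleen control 1 was not the highest there. In fibroblasts they summed to 70550 in mutant 2, the library highest in histone RNA, and to 33588 to 59480 in the others. Their part in the histone values was not tested.

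A few members did not follow the others, and were named after their values were seen. In fibroblasts, Hist1h2bc had 86.9, 82.2 and 107 in controls and 112, 90.6 and 84.4 in mutants, with its highest values in mutant 1 and control 3, where the histone sum was lowest. Hist2h2be, Hist2h2aa2, Hist3h2a and Hist2h3c2 stayed between 0.668 and 3.06 in fibroblasts and were also not highest in mutant 2. Hist1h4m, the last of the 6 exceptions there, had 7.46, 0 and 3.69 in controls and 4.27, 0.0514 and 0.0912 in mutants, and 89.8% of its windows lay in copies elsewhere. In spleen the exceptions were Hist1h4h and Hist1h4c, whose highest value was in mutant 2 (1019 and 434). In liver, Hist1h1c, Hist1h2bb and Hist1h2bl were highest in mutant 1 (1597, 348 and 117), just above control 1 in each case (1588, 306 and 116).

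Hist3h2ba, an H2B gene outside the large clusters, was far higher in brain than in fibroblasts. Its signal was 112 and 144 in brain controls, 99.4 and 138 in brain mutants, and at most 0.308 in any fibroblast library. It reached 214 and 36.8 in spleen controls and 84.8 and 10.2 in liver controls. It was the only member whose control mean was highest in brain, while 55 members had theirs in spleen. Its brain and spleen control means were close, at 208 and 204 per kb, with an SD of 204 in spleen. The higher spleen control, at 214, exceeded both brain controls. The tables were normalized separately, so the order of brain and spleen is uncertain for this gene. Of the windows of Hist3h2ba, 77.9% were unique, and the rest lay in the pseudogene Hist3h2bb-ps.

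The comparison of mutants with controls asks whether histone genes differed between homozygous and heterozygous Xist deletion. No member passed the threshold in any tissue with limma, while DESeq2 called 1 in spleen. The same limma fit missed Xist outside brain, so a count of 0 does not show that members were unchanged. Xist had log2 fold changes of -3.70 in fibroblasts, -3.90 in spleen and -1.62 in liver (limma adjusted p = 0.9997, 0.136 and 0.454). In brain the log2 fold change of Xist was -7.27 (limma adjusted p = 1.5e-08). DESeq2 called Xist in every tissue. With limma on log2(signal + 0.5), 0 of 56 members tested in fibroblasts, 0 of 57 in spleen, 0 of 55 in liver and 0 of 53 in brain reached an adjusted p of 0.05, against 0%, 0%, 0% and 0.0237% of all genes. Members left untested, 8 to 12 per tissue, had a table mean below 1. At an unadjusted p below 0.05, the counts were 0, 5, 0 and 11, against 0.971%, 6.27%, 6.67% and 4.07% of all genes. DESeq2 on recovered reads called 0, 1, 0 and 0 members, against 0.00714%, 0.915%, 1.05% and 0.214% of all genes. By edgeR no member was called, against 0%, 0%, 0% and 0.0211% of all genes. The median log2 fold change of members was 0.11 in fibroblasts, -0.79 in spleen, -0.52 in liver and -0.25 in brain, beside -0.003, -0.07, 0.05 and -0.01 over all genes tested.

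**Figure D4:**
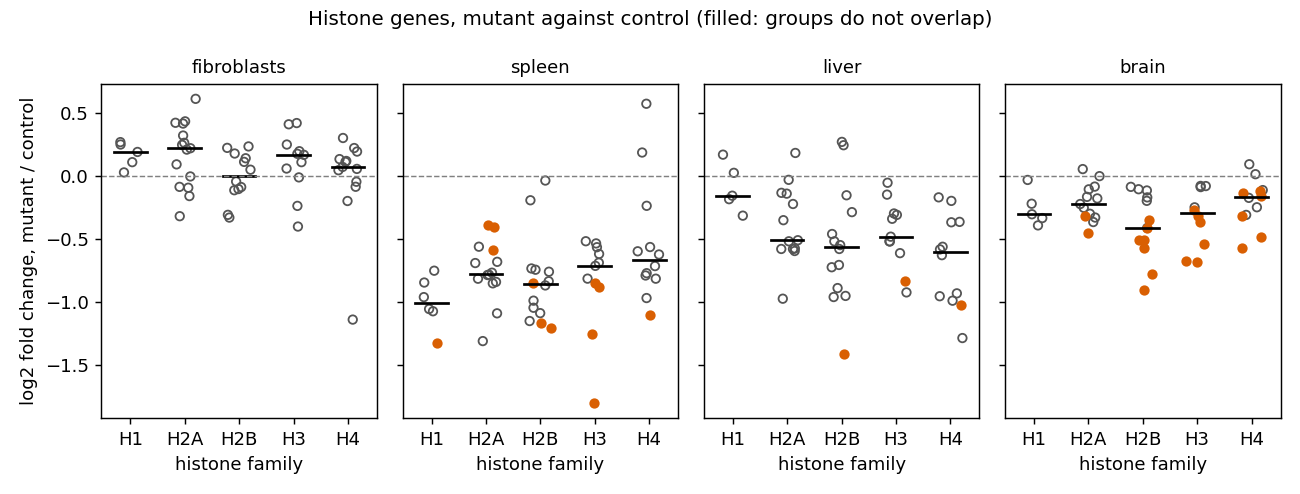
Log2 fold change of each tested histone gene, mutant over control, by family and tissue, with the family median as a bar and filled points where mutant and control values do not overlap. Points lie around 0 in fibroblasts and mostly below 0 in spleen, liver and brain, and none passed the adjusted threshold with limma, the fit drawn.

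In fibroblasts, mutant and control values overlapped for all 56 members tested, against 1.65% of all genes that were lower and 2.07% that were higher in every mutant. Estimates were above 0 for 38 members and below 0 for 18, and ranged from -1.14 for Hist1h4m to 0.62 for Hist1h2ap. Family medians lay between 0.01 for H2B and 0.22 for H2A. The median over members was -0.37 without mutant 2, -0.22 without control 3, 0.52 without mutant 1, 0.35 without control 1, 0.22 without mutant 3 and 0.17 without control 2, so its sign depended on single libraries. Hist1h1e, a main linker histone, had 212, 175 and 75.6 in controls and 84.5, 374 and 150.3 in mutants, and its groups overlapped (estimate 0.25 on the log2 scale with an SE of 0.62, limma adjusted p = 1.00).

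In spleen, 12 members were lower in both mutants than in both controls (21.1% of 57, against 21.9% of all genes), and none was higher in both (against 18.3%). The share of lower members was thus near that of all genes. Hist1h3b, an H3 gene (ENSMUSG00000069267, chromosome 13, 23752267 to 23752886, plus strand, 39.6% of windows unique), had the smallest p of the members. Its signal was 147 and 123 in controls and 58.9 and 53.2 in mutants, with no overlap. The log2 fold change was -1.25 (SE 0.27, limma adjusted p = 0.448), and DESeq2 gave -1.26 with an adjusted p of 0.0292. Hist1h2bl, an H2B gene, had 194 and 161 in controls and 95.5 and 60.7 in mutants (-1.21, SE 0.32, limma adjusted p = 0.594), with 17.2% of its windows unique. In these H3 and H2B genes control 2 lay nearer to control 1 than in the histone sum. Hist1h1t, the testis linker histone, was also lower in both mutants, at 0.751 and 0.697 (-1.33, SE 0.47, limma adjusted p = 0.760).

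Hist2h2bb, another H2B gene, had 168 and 68.5 in spleen controls and 34.8 and 65.02 in mutants (-1.17, SE 0.50, limma adjusted p = 0.779), and all of its windows lie also in the overlapping model Gm20628. Hist1h4f had 1714 and 772 against 539 and 529 (-1.11, SE 0.45, limma adjusted p = 0.779), and Hist1h3d had 343 and 197 against 115 and 172 (-0.88, SE 0.38, limma adjusted p = 0.779). In Hist2h2bb and Hist1h4f the control mean was carried by control 1. Without control 1, 12 of 57 members were lower and 4 higher in both mutants than in control 2, against 38.4% and 29.8% of all genes, and the median over members was -0.16 in place of -0.79. All 4 fibroblast markers were higher in both spleen mutants, with sums of 1734 to 2053 in controls and 2827 to 4687 in mutants and none at 0, and their part in the histone values was not tested.

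In liver, 3 members were lower in both mutants (5.45% of 55, against 13.1% of all genes) and none was higher (against 23.5%). They were Hist1h4k, Hist1h2ba and, named after its values were seen, Hist2h3c2. Hist1h4k, an H4 gene (ENSMUSG00000064288, chromosome 13, 21750194 to 21750505, minus strand, 28.5% of windows unique), had 358 and 131 in controls and 112 and 99.6 in mutants. Its log2 fold change was -1.03 (SE 0.51, limma adjusted p = 0.798). In spleen the same gene had 463 and 72.8 in controls and 258 and 292 in mutants, with an estimate of 0.58 (SE 0.77, limma adjusted p = 0.856), so its groups were apart in liver alone of these organs, which was not tested as a difference. All 4 fibroblast markers were higher in both liver mutants too, with sums of 260.4 to 329 in controls and 372 to 478 in mutants, and their part was not tested. Without control 1 the liver picture turned over: 34 of 55 members were higher and 3 lower in both mutants than in control 2, against 37.3% and 36.5% of all genes, and the median over members was 0.40 in place of -0.52.

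In brain, where libraries were most alike, 21 of 53 members were lower in both mutants than in both controls (39.6%, against 16.3% of all genes) and none was higher (against 13.8%). They comprised 7 H2B, 6 H3, 6 H4 and 2 H2A genes and no H1 gene. Hist1h2bk, an H2B gene (ENSMUSG00000062727, chromosome 13, 22035870 to 22036345, plus strand, 25.8% of windows unique) whose promoter is printed above, had 11.5 and 10.3 in controls and 6.27 and 6.02 in mutants. The log2 fold change was -0.78 (SE 0.19, limma adjusted p = 0.690). Hist1h3c, an H3 gene, had 8.36 and 6.00 against 5.10 and 3.48 (-0.68, SE 0.26, limma adjusted p = 1.00). Hist1h3d, another H3 gene, had 20.8 and 16.6 against 11.8 and 11.2 (-0.67, SE 0.18, limma adjusted p = 0.798). All 3 genes were lower in both mutants, and for Hist1h2bk and Hist1h3d the gap between the groups exceeded the distance between the controls.

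Hist1h4b, an H4 gene, had 12.8 and 15.4 in brain controls and 12.0 and 7.22 in mutants (-0.57, SE 0.24, limma adjusted p = 1.00). Hist1h2bg, an H2B gene with an octamer in its promoter, had 26.5 and 19.5 against 17.6 and 14.2 (-0.51, SE 0.19, limma adjusted p = 1.00). Hist1h2bc, known also as a polyadenylated mRNA, had 21.2 and 22.5 against 16.8 and 13.9 (-0.51, SE 0.16, limma adjusted p = 1.00). Among abundant members, Hist1h4d was slightly lower in both mutants, with 116.9 and 117.3 in controls and 111 and 98.8 in mutants. Other abundant members overlapped: Hist1h1c had 129.7 and 99.3 against 129 and 95.9, Hist1h1e 143 and 112 against 130 and 91.4, and Hist2h4 60.7 and 58.0 against 59.4 and 46.6. Without mutant 2, in which 42 members were lowest, 26 of 53 members were lower and 9 higher in mutant 1 than in both controls, against 36.6% and 30% of all genes, and the median over members was -0.07 in place of -0.25. S phase genes summed to 706 and 673 in brain controls and 792 and 592 in mutants. In both mutants 3 of the 27 were lower, against 16.3% of all genes. Hepatocyte markers summed to 140.3 and 766 in brain controls and to 995 and 643 in mutants, but nearly all of this was Ttr, also known from the choroid plexus (132 and 760.1, against 987 and 638). Alb was 5.79 and 3.52 in brain controls and 5.23 and 2.85 in mutants. By the annotated stem-loop, 18 of 34 tested members with it and 3 of 19 without it were lower in both brain mutants. Of all genes, 16.3% were lower in both. The medians were -0.31 with the stem-loop and -0.22 without it. Some members without it have short annotated transcripts, and this split was made with the values known and not tested. Members with at least 50% of windows unique had a median of -0.27, against -0.25 for the rest.

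Of the lists of related genes, none held a gene past the threshold in any tissue by limma. Replication-independent histones are a class that replaces histones outside S phase. The 11 genes listed as such had median log2 fold changes of 0.04 in fibroblasts, -0.31 in spleen, -0.18 in liver and -0.05 in brain. Of the 11, H2afx had the highest control mean in spleen and liver, at 1167 and 484. H2afx, the variant phosphorylated at DNA breaks, resembled the members across libraries, with 1753 and 582 in spleen controls and 463 and 573 in mutants. In liver it had 787 and 181 in controls and 461 and 208 in mutants. H2afx is thus no clean contrast to the members, and its placing in this list was not tested. H3f3a, a gene for H3.3, had 64.5 and 105 in spleen controls and 22.9 and 34.6 in mutants (-1.53, SE 0.35, limma adjusted p = 0.509). H1f0, the linker histone known from resting cells, had 191, 162 and 92.8 in fibroblast controls and 115, 309.8 and 136 in mutants, so its highest and lowest libraries were mutant 2 and control 3, as for the histone sum.

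The 12 genes of histone mRNA processing had medians of 0.01, -0.37, 0.08 and 0.04 in fibroblasts, spleen, liver and brain. Slbp, the stem-loop binding protein, had 178 and 64.6 in spleen controls and 55.5 and 56.8 in mutants (-0.93, SE 0.47, limma adjusted p = 0.779). Sympk, a scaffold of the cleavage complex, was the most abundant of them in each tissue, with 182 ± 4.67 (SD, n = 3) in fibroblast controls. The 12 histone chaperones, which carry histones to DNA, had medians of 0.04, -0.57, 0.08 and 0.03. Asf1b, a chaperone of H3 and H4, had 182 and 76.3 in spleen controls and 45.4 and 62.9 in mutants (-1.13, SE 0.44, limma adjusted p = 0.779). Both Slbp and Asf1b were highest in spleen control 1, as the histone genes were. S phase genes had medians of 0.03, -0.87, 0.01 and -0.03, and 19 of 27 were lower in both spleen mutants, against 21.9% of all genes. Their sum was 14315 in spleen control 1 and 5255 in control 2, so the control mean was carried by control 1. In liver the members' median of -0.52 stood beside that of 0.01 for S phase genes and -0.56 for the 6 untailed noncoding RNAs tested. Of these 6, 3 were lower in both liver mutants, against 13.1% of all genes. In fibroblasts, spleen and brain the untailed RNAs had medians of -0.21, 0.20 and -0.15. The members' medians there were 0.11, -0.79 and -0.25.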

How the data were processed

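Total RNA was extracted with Trizol, depleted of ribosomal RNA and sequenced in reads of 50 nt, per the labels' protocols and design text. The deposited signal is reads per gene scaled by the authors in each of 4 tables, 1 per tissue. HTSeq 0.6.1, edgeR and the build GRCm38 are named in the submitters' processing notes; the aligner, annotation release and handling of strand and multiple matches are not named there. Dividing by the value of 1 read gave whole reads for 100% of values (tolerance 0.05), and these recovered counts served DESeq2 and edgeR. Of 46078 gene identifiers, 45229 matched GENCODE release 21, and the other 849 were left out of the tests. No deposited column was left unused.

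Within each table, limma 3.58.1 (R 4.3.3, two-sided) was fitted on log2(signal + 0.5) to every gene whose mean over its table reached 1, with Benjamini-Hochberg adjustment over those genes and a threshold of 0.05. DESeq2 1.42.0, edgeR 4.0.16, pseudocounts of 0.1 and 1, no filter, rescaling, a replicate block and leaving out each replicate were alternatives. The fits were tested on simulated data. The histone members and all gene lists were chosen with earlier results of these data known. Members are named by rule: the 3 most abundant per family, testis-type and known polyadenylated members, and in each tissue up to 5 members with the largest fold among those with a mean of at least 5 and no overlap between groups. Of related lists, genes with the smallest p or the highest control mean are named, and others, such as H2afx and H1f0 across tissues, were chosen after their values were seen. With 2 libraries per group in the organs, and 3 in fibroblasts, precision is limited by their number.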

Additional observations from a re-analysis of the deposited data

How the results depend on the processing

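In spleen the number of histone genes past the threshold, 0 with limma, was 1 of 57 with DESeq2 (0.915% of all genes called), 2 with the replicate block (2.15% of all genes), and 0 to 1 leaving out each library in turn (0% to 1.07% of all genes). Hist1h3b was the gene called by DESeq2 (log2 fold change -1.26, adjusted p = 0.0292). The limma fit with the replicate block called Hist1h3b (-1.25, adjusted p = 0.0404) and Hist2h3c2 (adjusted p = 0.0283), so 1 of the named genes was past the threshold with either. Hist2h3c2 was low, at 1.99 to 5.41 per kb in spleen controls, and 36.5% of its windows were unique. Without spleen mutant 2, limma called Hist2h3c2 alone (adjusted p = 0.00592), with the lone mutant assumed to vary as the controls do. The cause was not tested. In fibroblasts, liver and brain the count was 0 under every alternative run. The numbers in the titles are not said to mark a litter or day. Deviations of same-numbered libraries correlated at -0.08, 0.43 and 0.02 in fibroblasts, -0.03 in spleen, 0.58 in liver and 0.08 in brain, so the pairing is not established. The mean control sum in brain was 1409, in place of 1552, when each library's own most abundant member was left out (Hist1h1e in control 1, Hist3h2ba in control 2).

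Leaving out 1 library, an alternative added after the values were seen, the members whose groups do not overlap numbered 0 to 3 in fibroblasts, 14 to 55 in spleen, 9 to 52 in liver and 30 to 49 in brain. With fewer libraries such separation is commoner: over all genes it held for 8.12% to 14.8% in fibroblasts, 61.1% to 82% in spleen, 61% to 73.7% in liver and 58% to 69.2% in brain. As shares of members the counts were 0% to 5.36%, 24.6% to 96.5%, 16.4% to 94.5% and 56.6% to 92.5%, so they lay on both sides of the share of all genes in spleen, liver and brain. Median log2 fold changes then ranged from -0.37 to 0.52 in fibroblasts, -1.43 to -0.16 in spleen, -1.36 to 0.40 in liver and -0.48 to -0.07 in brain.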
